A study of Mus musculus with 32 samples.

Results

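The 8 genes Itga2b, Itgb3, Gp9, Gp6, Vwf, Selp, Pf4 and Treml1 of the megakaryocyte and platelet programme were followed through the accessible chromatin of blood stem and progenitor cells. Accessible regions were given to a gene when their midpoint lay inside the gene's span, or within 50 kb of it and nearer to it than to any other protein-coding gene. By that rule 50 of the 99037 regions of the developmental series belonged to these genes. They comprised 18 regions of Vwf, 16 of Itgb3, 5 of Selp, 4 of Gp9, 3 each of Itga2b and Pf4, 1 of Treml1 and 0 of Gp6, so that 7 of the 8 genes could be measured there. In the separate table of cultured cells, 70 of 147852 regions belonged to the 8 genes, 3 of them to Gp6.

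The measurements are ATAC-seq counts, in which the Tn5 transposase places sequencing adapters into open chromatin, from LSK cells of C57BL/6 mice. LSK stands for lineage-negative, Sca-1-positive and Kit-positive, a sorted fraction of marrow or liver in which blood stem cells and their first progeny are enriched. The developmental series held 26 libraries in 9 groups: E12.5 FL and E12.5 PL at the earliest stage, then E16.5 FL, perinatal BM, 1w BM, 3w BM, 4w BM, 6w BM and 8w BM. There were 2 libraries of 3w BM and 3 of every other group. By common usage FL is fetal liver and BM bone marrow, the labels do not spell out PL, and no genetic change is named for any group. Another experiment kept E12.5 FL cells for 2 h either in medium that E16.5 hepatocytes had conditioned (co-SHI) or in basic medium (SHI), with 3 libraries of each.

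Megakaryocytes are the large marrow cells that shed platelets. Their genes encode adhesion receptors of the platelet surface, the cargo of platelet granules, and signalling proteins that turn receptor binding into aggregation and secretion. Part of this programme already marks blood stem and progenitor cells: CD41, the product of Itga2b, marks the first blood progenitors of the embryo, and Vwf marks a platelet-biased fraction of adult stem cells. Vwf and Selp are also genes of endothelial cells. LSK cells are not mature megakaryocytes, so the values below describe how open these loci are in progenitors and say nothing of RNA or protein.

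Total counts per library ran from 2845113 in 1w BM 2 to 10167340 in 1w BM 3 in the developmental table. In the cultured table they ran from 14280440 to 20092146 in co-SHI and from 7512258 to 11655458 in SHI. Of the genes that define the sort, Kit had group means of 83.8 to 157.6 CPM, that is counts scaled to a common library total, and Ly6a, which encodes Sca-1, had 1.52 to 4.74 CPM from its single region. Ptprc, which encodes the leukocyte antigen CD45, had group means of 43.9 to 159.9 CPM. The stage label of library 8w BM 3 reads E12.5 while its title places it in 8w BM, and it was used by its title. E12.5 PL stood apart in Kit and Ptprc, with the highest Kit mean and the lowest Ptprc mean. Ptprc averaged 135.1 ± 15 CPM in the E12.5 FL libraries and 43.9 ± 5.3 CPM in those of E12.5 PL (SD over 3 libraries each). No label ties the libraries within a group to different animals, and p-values measure the spread between these libraries only. Cells of a sorted fraction are measured together, so fewer cells with an open locus and less opening per cell cannot be told apart.

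The promoter windows of Itga2b, Pf4 and Gp9 are shown because a developmental region lies on the start of Pf4 and of Gp9 and just upstream of that of Itga2b, and all of these regions moved in at least 1 of the comparisons that follow. Each sequence runs 5′ to 3′ on the gene's own strand over 300 bases, from 250 before the RefSeq start to 50 after it (RefSeq, build GRCm38.p6, which is mm10). Capitals mark GATAA, the core bound by GATA factors, and GGAAG, a core bound by ETS factors, on either strand, so that GGAAG on the other strand reads CTTCC. The Itga2b window lies at chr11:102469834-102470133 on the minus strand, with 214 of its bases inside the region chr11:102469920-102470440, which ends short of the start itself. The Pf4 window, chr5:90772185-90772484 on the plus strand, and the Gp9 window, chr6:87777820-87778119 on the plus strand, lie wholly inside a region. The Gp9 start used, chr6:87778070, lies inside the gene's span, which begins at chr6:87776131. The region on that start therefore counts as gene body and does not enter sums of gene-end regions only.
Itga2b: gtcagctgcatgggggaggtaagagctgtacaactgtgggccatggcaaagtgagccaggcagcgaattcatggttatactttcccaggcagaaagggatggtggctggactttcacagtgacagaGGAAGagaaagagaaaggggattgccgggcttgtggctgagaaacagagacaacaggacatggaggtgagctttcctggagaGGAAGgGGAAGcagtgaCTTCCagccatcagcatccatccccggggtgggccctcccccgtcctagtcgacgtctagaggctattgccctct
Pf4: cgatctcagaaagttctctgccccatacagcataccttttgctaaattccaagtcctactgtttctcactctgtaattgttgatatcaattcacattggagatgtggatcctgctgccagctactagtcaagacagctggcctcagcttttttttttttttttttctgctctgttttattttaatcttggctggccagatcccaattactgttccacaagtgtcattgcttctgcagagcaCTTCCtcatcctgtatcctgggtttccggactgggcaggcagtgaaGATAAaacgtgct
Gp9: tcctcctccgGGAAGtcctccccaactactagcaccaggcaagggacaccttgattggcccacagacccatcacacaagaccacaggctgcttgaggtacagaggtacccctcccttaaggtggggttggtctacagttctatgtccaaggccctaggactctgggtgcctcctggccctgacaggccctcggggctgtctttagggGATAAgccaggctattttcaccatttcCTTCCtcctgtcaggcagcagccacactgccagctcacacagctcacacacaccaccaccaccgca

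GATAA starts at +38 in Pf4 and at -43 in Gp9, counted from the RefSeq start, and is not among the letters of the Itga2b window. GGAAG is present in all 3, with 4 matches in Itga2b at -124, -42, -36 and -25, 1 in Pf4 at -9 and 2 in Gp9 at -240 and -16. The Itga2b matches at -36 and -25 lie outside its region. TGTGG, the core bound by RUNX factors, was also searched on both strands and has 2 matches in Itga2b, 2 in Pf4 and 3 in Gp9. Of 32851 mouse promoter windows of the same length, 25.4% hold GATAA, 71.4% hold GGAAG and 55.9% hold TGTGG. The windows shown were chosen by these calls. Of the other windows searched, those of Selp, with 270 bases inside a region, and of Treml1 hold no GATAA. That of Gp6 holds it at -143. No binding of any factor was measured.

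The members were tested for any difference between groups, first over all 9 and then over the 8 without E12.5 PL. The edgeR quasi-likelihood F test called 5 of the 7 members, against 71.7% of the 17351 genes tested: Gp9 (adjusted p = 1.2e-09), Pf4 (1.2e-07), Selp (1e-06), Itga2b (0.0082) and Itgb3 (0.035). Vwf (0.074) and Treml1 (0.28) did not pass. With the E12.5 PL libraries left out of the contrast, Pf4 (0.0034) and Itga2b (0.010) passed, against 42.4% of all genes, and Selp (0.084) and Gp9 (0.13) did not. Whether a member differed more in one contrast than in the other was not tested. Of the 50 regions, 30 differed between any of the 9 groups, against 64.4% of all regions, and 14 among the 8 groups without E12.5 PL, against 26.1%. The members were thus called about as often as other genes and regions of these cells.

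**Figure D1:**
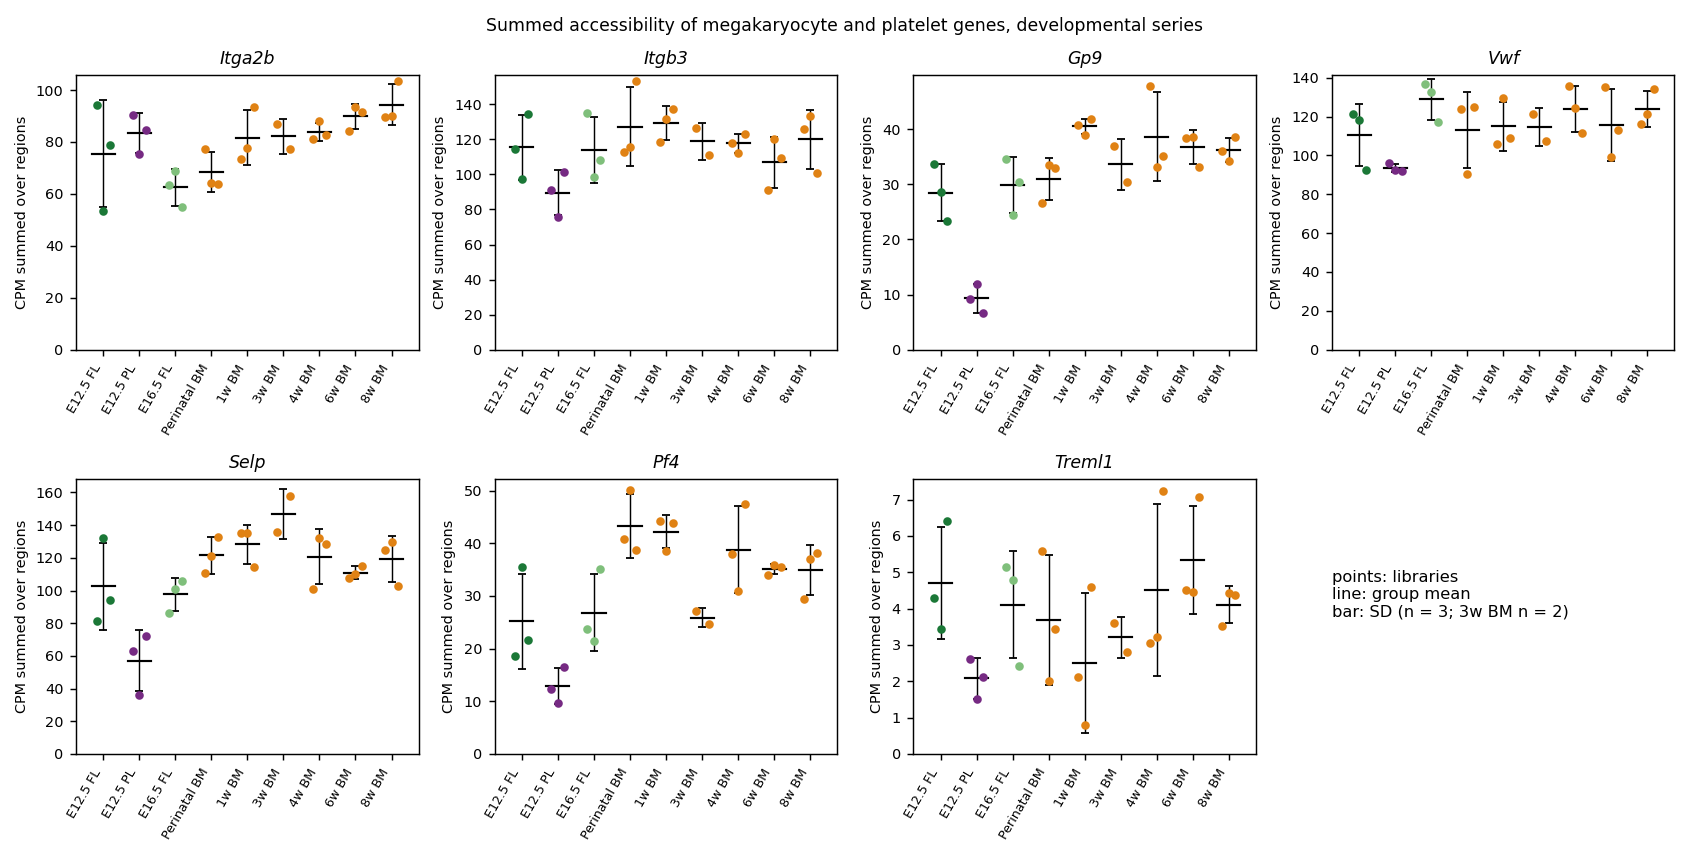
CPM summed over the regions of each gene (vertical axes, each from 0) in the 26 libraries of the developmental series, by group on the horizontal axes. Points are libraries, lines are group means and bars are SD, and Gp9, Pf4 and Selp have their lowest group mean in E12.5 PL (9.29, 12.8 and 57.0 CPM).

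Gp9 encodes glycoprotein IX, a subunit of the GPIb-IX-V receptor with which platelets bind von Willebrand factor. Its regions summed to 33.7, 28.6 and 23.3 CPM in E12.5 FL, against 9.27, 12 and 6.6 CPM in E12.5 PL. Every E12.5 FL library was above every E12.5 PL library. The log2 fold change was 1.61 (SE 0.21, edgeR adjusted p = 4e-08). Later group means lay nearer to E12.5 FL than to E12.5 PL: 29.9 CPM in E16.5 FL, 31.0 in perinatal BM, 40.5 in 1w BM, 33.7 in 3w BM, 38.7 in 4w BM, 36.8 in 6w BM and 36.3 in 8w BM. Every library of 1w BM (39.0 to 41.8 CPM) and of 8w BM (34.2 to 38.6 CPM) lay above every E12.5 FL library. For 8w BM against E12.5 FL the gene sum did not pass (log2 fold change 0.34, edgeR adjusted p = 0.15). In the order of the 9 means each pair of neighbours overlapped in its libraries, except E12.5 FL and E12.5 PL at the low end.

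Pf4 encodes platelet factor 4 (CXCL4), a chemokine of the platelet alpha granule. It held 18.5, 35.4 and 21.6 CPM in E12.5 FL, against 12.4, 9.65 and 16 CPM in E12.5 PL, again without overlap (log2 fold change 0.97, SE 0.23, adjusted p = 0.00053). Selp encodes P-selectin, an adhesion receptor stored in granule membranes and moved to the platelet surface on activation. Its sum was 81.3, 132.3 and 94.1 CPM in E12.5 FL, against 63.0, 36 and 72.1 CPM in E12.5 PL (log2 fold change 0.85, SE 0.17, adjusted p = 5.3e-05). The lowest E12.5 FL library of Selp was above the highest E12.5 PL library.

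Itgb3 encodes integrin beta 3, the partner of CD41 in the fibrinogen receptor of platelets. It summed to 114.5, 97.2 and 134.6 CPM in E12.5 FL, against 91.3, 75.9 and 101.5 CPM in E12.5 PL (log2 fold change 0.37, SE 0.14, adjusted p = 0.027). The groups overlap, since E12.5 FL 2 lies below E12.5 PL 3. This call ended without E12.5 FL 3 (log2 fold change 0.24) or E12.5 PL 2 (0.27), with the 2 groups fitted alone (0.35) and with the scaling of the region table (0.10), and the sign turned with gene-end regions only (-0.26). Treml1, whose product is a receptor of platelet granules, was measured by 1 region at 4.28, 3.43 and 6.41 CPM in E12.5 FL, against 2.62, 1.5 and 2.12 CPM in E12.5 PL. Its difference did not pass the test (log2 fold change 1.17, SE 0.51, adjusted p = 0.053) although the libraries did not overlap. Vwf encodes von Willebrand factor, the plasma and granule protein that tethers platelets to vessel walls. It summed to 121.4, 118.3 and 92.4 CPM in E12.5 FL, against 96.1, 92.6 and 92.1 CPM in E12.5 PL, overlapping groups that did not pass the test (log2 fold change 0.24, SE 0.13, adjusted p = 0.11).

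Between E12.5 FL and E12.5 PL, 4 of 7 members were therefore higher in E12.5 FL and 0 lower, against 25.9% of all genes higher and 23.5% lower. The median log2 fold change was 0.85 over the members and -0.01 over all genes. Scaled by the TMM factors of the region table in place of those of the gene table, the median of all genes was -0.28, and 2861 genes were called higher and 7464 lower, against 4496 higher and 4083 lower with the gene table's factors. Gp9, Pf4 and Selp were called higher under both scalings, and Itga2b was called lower under that of the region table (-0.41).

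Of the 50 regions, 14 were higher in E12.5 FL and 6 lower, against 23.2% of all regions higher and 26.3% lower. At Gp9 the region on the start site (chr6:87777766-87778336) held 13.1, 8.90 and 7.66 CPM in E12.5 FL, against 1.92, 4.72 and 2.31 CPM in E12.5 PL (log2 fold change 1.71, SE 0.35, adjusted p = 6.3e-05). Another region, 7.23 kb upstream of the Gp9 start (chr6:87770566-87771116), chosen after its values were seen, held 5.66, 4.68 and 2.96 CPM in E12.5 FL, against 1.44, 0.900 and 0 CPM in E12.5 PL (log2 fold change 2.48, SE 0.54, adjusted p = 0.00018). Both regions separated the groups without overlap. At Selp the region at the 3′ end of the gene (chr1:164149014-164150033), chosen after its values were seen, held 13.1, 23.6 and 15.1 CPM in E12.5 FL, against 6.98, 2.70 and 6.01 CPM in E12.5 PL, also without overlap (log2 fold change 1.73, SE 0.30, adjusted p = 5.1e-06). The Selp gene-body region chr1:164135263-164135859 (0.65, SE 0.20, adjusted p = 0.0055) and the region 3.38 kb downstream of the Pf4 start (chr5:90775547-90776087; 1.25, SE 0.38, adjusted p = 0.0062) were higher too. On rounded adjusted p the Selp gene-body call held in 9 of 13 alternatives. Those that ended it included DESeq2 (0.44) and leaving out E12.5 FL 2 (0.48) or E12.5 PL 2 (0.44). The Pf4 call ended with loess offsets (0.70) and without E12.5 PL 2 (0.94).

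At Itga2b the regions changed in opposite directions. The sum over the gene below is scaled by the gene table's factors and the regions by those of the region table. With the region table's factors the sum was called lower too (-0.41, edgeR adjusted p = 0.015). Summed, the gene had 94.4, 53.5 and 78.7 CPM in E12.5 FL, against 90.4, 75.2 and 84.8 CPM in E12.5 PL, groups that overlap (log2 fold change -0.14, SE 0.14, adjusted p = 0.42), and its sign turned with gene-end regions only (1.37). The region just upstream of the start (chr11:102469920-102470440) had 16.3, 7.96 and 9.88 CPM in E12.5 FL, against 6.01, 6.07 and 6.01 CPM in E12.5 PL, all E12.5 FL libraries being higher (log2 fold change 0.92, SE 0.28, adjusted p = 0.0052). The call ended without E12.5 FL 1 (0.56). The 2 regions in the gene body, 2.70 kb and 13.9 kb downstream of the start (chr11:102466928-102467435 and chr11:102455534-102456498), were lower, with log2 fold changes of -0.57 (SE 0.21, adjusted p = 0.021) and -0.61 (SE 0.20, adjusted p = 0.0088). These lower calls ended with total counts (-0.28 and -0.33), with loess offsets (-0.28 and -0.39), without E12.5 FL 2 (-0.29 and -0.47) or without E12.5 PL 1 (-0.51 and -0.48). That of the nearer region also ended with the 2 groups fitted alone (-0.58) and without E12.5 FL 3 (-0.54). As a share of the gene's own counts, which no scaling affects, the upstream region made up 17.8% ± 2.8 in E12.5 FL and 7.16% ± 0.56 in E12.5 PL (SD, n = 3 each).

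Itgb3 was mixed too, though unlike Itga2b it was lower at its gene-end region. In E12.5 FL 5 of its 16 regions were higher and 2 lower. The region at one end of its span (chr11:104607778-104608421) had a log2 fold change of -0.73 (SE 0.26, adjusted p = 0.017), while regions inside the gene at chr11:104636992-104637580 (1.2, SE 0.32) and chr11:104646445-104647923 (0.72, SE 0.26) were higher. The widest gap was at chr11:104631192-104631801, chosen after its values were seen, with 1.59, 0.936 and 1.48 CPM in E12.5 FL, against 6.01, 6.97 and 9.02 CPM in E12.5 PL (log2 fold change -2.44, SE 0.46, adjusted p = 2.2e-05). The call at the end of the span ended with total counts (-0.45) and without E12.5 FL 1 (-0.63) or E12.5 PL 1 (-0.54). That at chr11:104646445-104647923 held in 7 of 13 alternatives on rounded adjusted p. Those that ended it included DESeq2 (0.50), loess offsets (0.50), the 2 groups alone (0.70) and leaving out E12.5 FL 3 (0.66) or E12.5 PL 1 (0.68).

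Of the 18 Vwf regions 3 were higher in E12.5 FL and 2 lower. The region chr6:125573116-125573667 in the gene body held 18.6, 16.4 and 14.3 CPM in E12.5 FL, against 26, 33.3 and 22.2 CPM in E12.5 PL. All E12.5 FL libraries lay below all E12.5 PL libraries (log2 fold change -0.72, SE 0.21, adjusted p = 0.0036). On rounded adjusted p this call held in 11 of 13 alternatives, and total counts (-0.43) were among those that ended it.

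**Figure D2:**
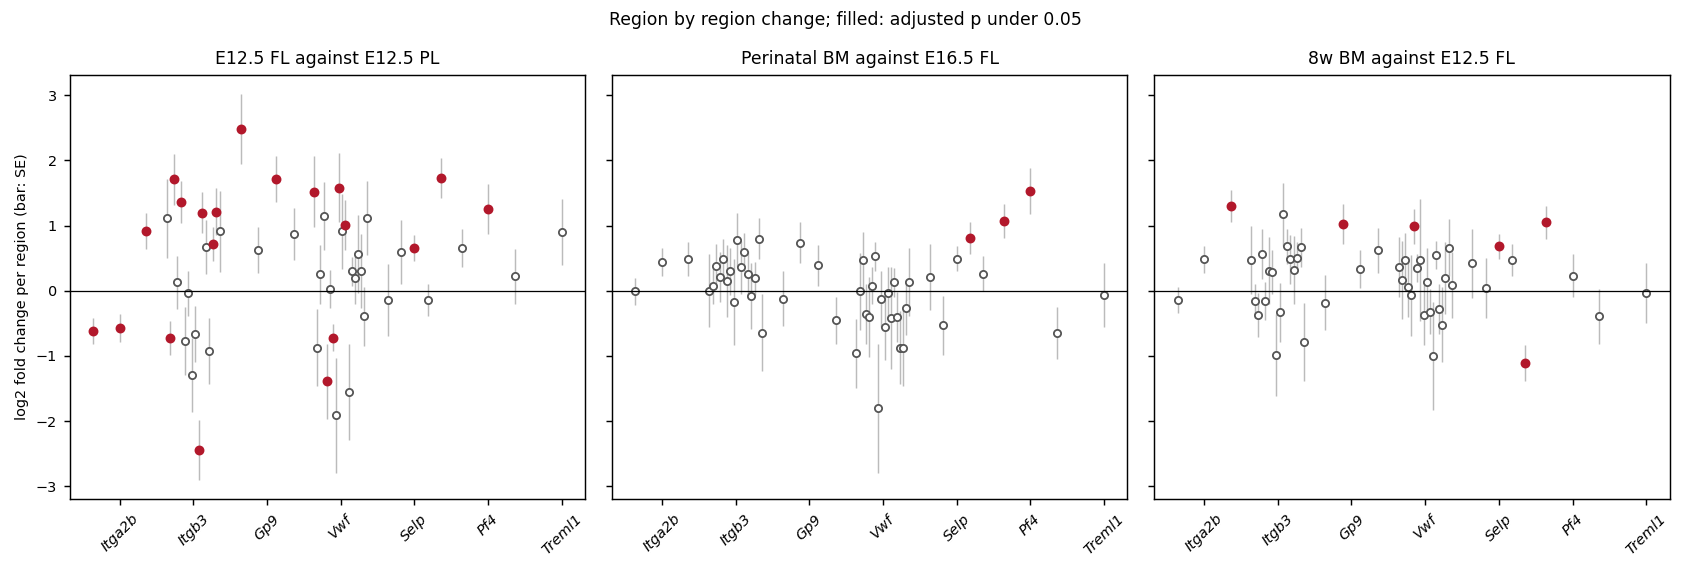
Log2 fold change of each developmental region (vertical axis, bars are SE) by gene, regions in genome order within a gene, in 3 comparisons: E12.5 FL over E12.5 PL, perinatal BM against E16.5 FL and 8w BM against E12.5 FL. Filled points passed the edgeR test, 20, 3 and 6 of 50 regions, and the Itga2b, Itgb3 and Vwf regions of the first panel lie on both sides of 0.

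Other cell types' genes were called in the same comparison, against 25.9% of all genes higher in E12.5 FL and 23.5% lower. Of the endothelial markers 1 was higher and 11 lower of 19, and their summed level was 1236 to 1251 CPM in E12.5 FL, against 1378 to 2014 CPM in E12.5 PL, with no marker at 0. Higher in E12.5 FL were 8 of 10 neutrophil, 6 of 9 mast cell and basophil, 6 of 12 macrophage, 6 of 10 lymphoid and 5 of 10 erythroid markers, with 0, 0, 1, 0 and 1 lower. Of 11 trophoblast markers 1 was higher and 5 lower, at 398 to 420 CPM in E12.5 FL, against 497 to 612 CPM in E12.5 PL. The part of these cell types in the members' differences was not tested.

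The rest of the platelet programme was read from lists of 76 further genes, of which 73 were tested. In E12.5 FL 35 were higher and 10 lower, against 25.9% of all genes higher and 23.5% lower, with a median log2 fold change of 0.34 over the list and -0.01 over all genes. Among the surface receptors, 11 of 19 were higher and 1 lower, led by P2ry12 (2.23, SE 0.16), the ADP receptor targeted by clopidogrel, and including the thrombin receptor F2rl3 (1.79, SE 0.19). Among signalling and cytoskeletal genes, 12 of 20 were higher and 4 lower, with Plek (1.89, SE 0.13), the platelet protein pleckstrin, and Plcg2 (1.51, SE 0.10), the phospholipase downstream of the collagen receptor. Granule genes were divided, with 5 higher and 3 lower of 18. Angpt1 (1.49, SE 0.13) was higher, while Sparc (-1.85, SE 0.17) and Thbs1 (-1.02, SE 0.14), which encode matrix proteins, were lower. Of the transcription factors 7 of 16 were higher and 2 lower, with Nfe2 (1.39, SE 0.14), a factor needed for platelet release, and Gfi1b (1.17, SE 0.16). The genes named are only some of those called, and Ptprc, outside these lists, was higher too (1.62, SE 0.12).

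Within the fetal liver, E16.5 FL and E12.5 FL were not told apart at these genes. The edgeR test called 0 of 7 members and 0 of 50 regions, as did DESeq2, and 0 members and 3 regions had an unadjusted p under 0.05. The background was as low: 0.0% of all genes were called in either direction, and 0.00101% of all regions were called higher and 0.0% lower. Among gene sums the largest differences were those of Itga2b (log2 fold change -0.28, SE 0.15) and Vwf (0.22, SE 0.13), with adjusted p of 0.67 and 0.70. Among regions the largest was at chr11:104631192-104631801 in Itgb3 (1.6, SE 0.49, adjusted p = 0.38).

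Between fetal liver and perinatal marrow Pf4 was the member that rose. Its sum was 40.8, 50.2 and 38.7 CPM in perinatal BM, against 23.8, 21.5 and 35.2 CPM in E16.5 FL. Every perinatal BM library lay above every E16.5 FL library (log2 fold change 0.69, SE 0.21, edgeR adjusted p = 0.019). It was the only 1 of 7 members called, against 10.1% of all genes called higher and 6.43% lower. The call ended without E16.5 FL 1 (log2 fold change 0.62), E16.5 FL 2 (0.56) or perinatal BM 2 (0.56).

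Regions called in this step numbered 3 of 50, all higher in perinatal BM, against 6.63% of all regions called higher and 1.37% lower. The Pf4 start-site region (chr5:90772106-90772802) held 20.9, 26.8 and 21.5 CPM in perinatal BM, against 7.86, 7.76 and 17.4 CPM in E16.5 FL (log2 fold change 1.07, SE 0.26, adjusted p = 0.0043). That call ended with loess offsets (0.75) and without E16.5 FL 1 (0.88) or perinatal BM 2 (0.95). A second region 3.38 kb downstream of the Pf4 start (chr5:90775547-90776087) held 11, 13 and 10.1 CPM in perinatal BM, against 4.42, 4.01 and 3.42 CPM in E16.5 FL (log2 fold change 1.53, SE 0.35, adjusted p = 0.0025), and no library or setting tried ended its call. Within Selp, the region chr1:164135884-164136391 held 20.6, 27.5 and 32.4 CPM in perinatal BM, against 13, 14.8 and 18.3 CPM in E16.5 FL (log2 fold change 0.81, SE 0.24, adjusted p = 0.025). The Selp call ended with total counts (0.63), with loess offsets (0.45) and without any 1 of E16.5 FL 1 (0.70), E16.5 FL 2 (0.78), perinatal BM 2 (0.79) or perinatal BM 3 (0.66).

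Of the further platelet genes 8 of 73 rose in perinatal BM and 1 fell, against 10.1% of all genes called higher and 6.43% lower, so the share that rose was near that of all genes. P2ry12 (log2 fold change 0.59, SE 0.14), F2rl3 (0.52, SE 0.18), the granule genes Tgfb1 (0.49, SE 0.12) and F13a1 (0.78, SE 0.24), and the adaptor Lat (0.57, SE 0.16) were higher, and the myosin kinase gene Mylk (-0.34, SE 0.12) was lower. Of the 16 transcription factors 0 were called by edgeR. Without E16.5 FL 1 or without perinatal BM 2 the 9 calls of the 73 genes were 3. Scaled by the region table's factors, 3613 of all genes were called higher and 599 lower, against 1750 higher and 1116 lower with the gene table's factors, the median of all genes was 0.13, and Selp joined the calls (0.46).

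Some markers of other cell types were called in this step too, against 10.1% of all genes called higher and 6.43% lower. Higher and lower in perinatal BM were 0 and 1 of 19 endothelial markers (Tek, -0.92), 0 and 1 of 10 erythroid (Add2, -1.87), 1 and 1 of 9 mast cell and basophil, 1 and 2 of 12 macrophage and monocyte, 0 and 2 of 10 neutrophil (Camp, -3.27, and S100a8, -1.06), 2 and 0 of 10 lymphoid (Flt3, 0.50, and Dntt, 0.61), 1 and 0 of 9 hepatocyte and 0 and 1 of 11 trophoblast markers. Summed lymphoid markers were at 815.0 to 893.0 CPM in perinatal BM, against 660.5 to 757.0 CPM in E16.5 FL. Summed endothelial markers were at 1157 to 1193 CPM in perinatal BM, against 1195 to 1339 CPM in E16.5 FL, and trophoblast markers at 335.3 to 356.7 CPM in perinatal BM, against 408.2 to 487.3 CPM in E16.5 FL. The sums of the other lists overlapped between the groups, and no marker of any list was at 0. Ptprc (0.37, SE 0.11) and the progenitor gene Cd34 (0.47, SE 0.12) were higher, and the part of any of these in the members' values was not tested.

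**Figure D3:**
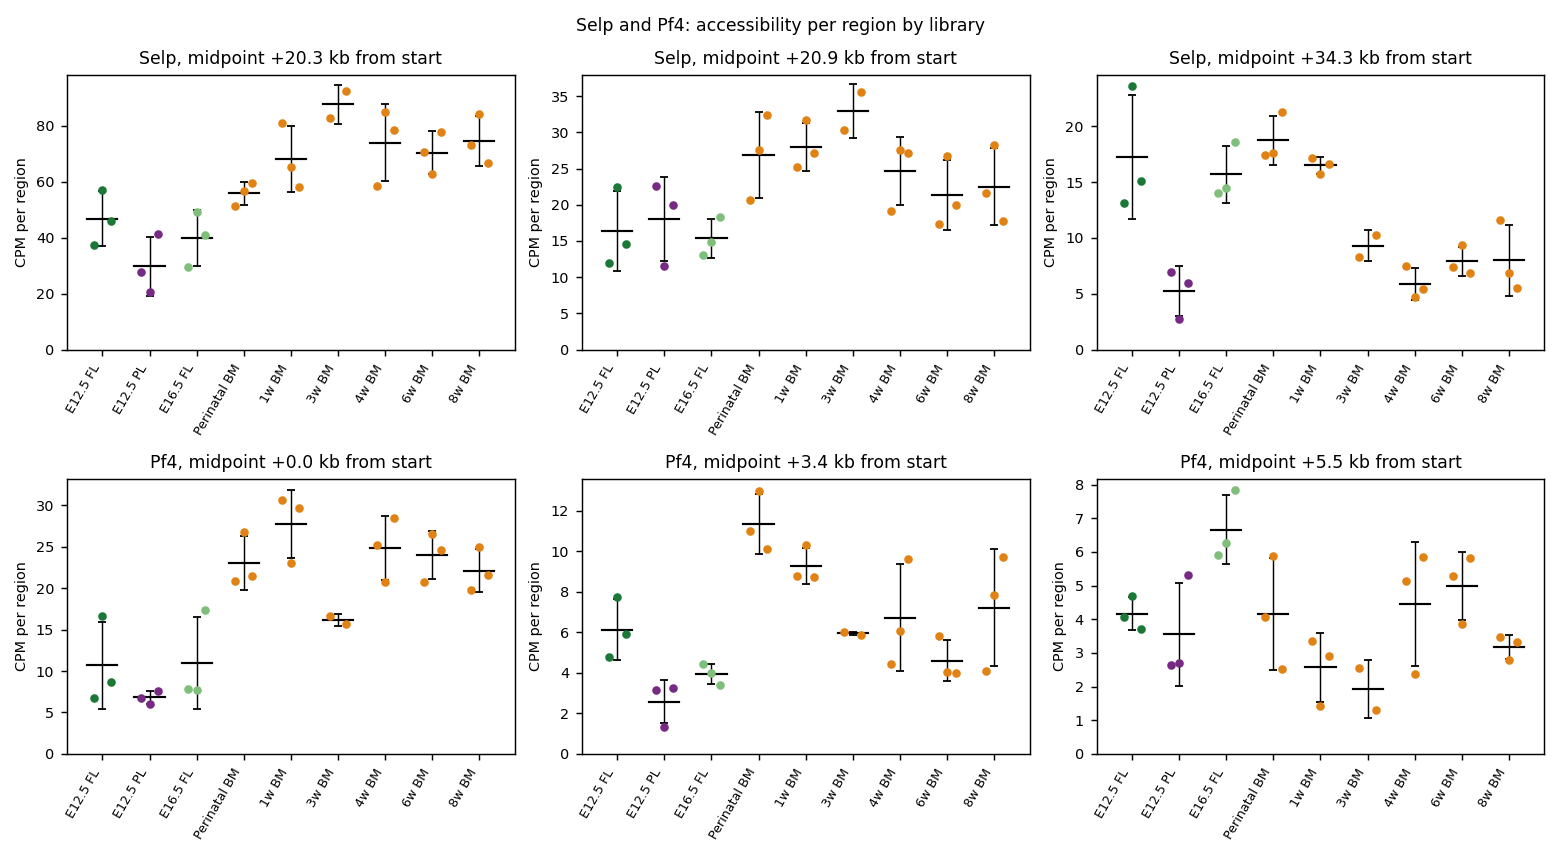
CPM per region (vertical axes, each from 0) of the 3 Selp regions whose mean over libraries exceeds 5 CPM and of the 3 Pf4 regions, in the 26 developmental libraries by group. Points are libraries, lines means and bars SD, and the Selp region 34.3 kb from the start holds 13.1 CPM or more in each liver and perinatal or 1w marrow library and 11.6 CPM or less in each E12.5 PL library and each marrow library from 3w on.

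In marrow after birth no gene sum of a member passed the test in either step tested, 1w BM against perinatal BM and 8w BM against 1w BM. For 1w BM against perinatal BM the edgeR test called 0 of 7 members and 0 of 50 regions, as did DESeq2, against 0.0173% of genes called higher and 0.259% lower and 0.0313% of regions called higher and 0.148% lower, and 1 member (Gp9, log2 fold change 0.38, SE 0.18) and 4 regions had an unadjusted p under 0.05. For 8w BM against 1w BM both tools called 0 of 7 members, with 0 at unadjusted p under 0.05, against 0.749% of genes called higher and 0.617% lower. Of the further platelet genes, Sparc (-0.90, SE 0.17) was lower in 1w BM than in perinatal BM and Slc35d3 (-0.71, SE 0.15) was lower in 8w BM than in 1w BM. The Sparc step left no call without perinatal BM 1, 1w BM 1 or 1w BM 3, and the Slc35d3 step none without 1w BM 3, 8w BM 1 or 8w BM 3.

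The 3w, 4w and 6w BM groups entered no test of their own against another marrow group. Pf4 held 27.2 and 24.6 CPM in 3w BM, against 29.5 CPM or more in every other marrow library. Selp held 136.1 and 157.6 CPM in 3w BM, against 135.0 CPM or less in every other marrow library. Both were picked out after their values were seen.

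The single region that changed between 8w BM and 1w BM was at the 3′ end of Selp. This region (chr1:164149014-164150033, 34.3 kb downstream of the start), named after its values were seen, held 11.6, 6.88 and 5.52 CPM in 8w BM, against 17.2, 15.7 and 16.6 CPM in 1w BM (log2 fold change -1.05, SE 0.28, adjusted p = 0.036). It was 1 of 50 called, against 0.641% of all regions called higher and 0.635% lower. Its mean was 17.3 CPM over the E12.5 FL libraries and 5.23 over those of E12.5 PL. The later group means were 15.7 CPM in E16.5 FL, 18.8 in perinatal BM, 16 in 1w BM, 9.28 in 3w BM, 5.89 in 4w BM, 7.89 in 6w BM and 8.00 in 8w BM. The libraries of 3w BM and later thus lay below all liver, perinatal and 1w libraries. Its share of the gene's counts was 7.16% ± 2.5 in 8w BM and 13.8% ± 1.4 in 1w BM, while that of the gene-body region chr1:164135263-164135859 was 67.3% ± 3.8 in 8w BM and 56.4% ± 5.0 in 1w BM (SD, n = 3 each). The call of 8w BM against 1w BM ended without any 1 of 5 libraries: 1w BM 1 (-1.02), 1w BM 2 (-1.08), 1w BM 3 (-1.04), 8w BM 2 (-0.94) or 8w BM 3 (-0.85).

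The region just upstream of the Itga2b start was higher in 8w BM than in E12.5 FL, groups whose organ and age both differ and cannot be told apart. It held 27.9, 25.0 and 31.4 CPM in 8w BM, against 16.3, 7.96 and 9.88 CPM in E12.5 FL, a gap without overlap (log2 fold change 1.30, SE 0.24, adjusted p = 5.2e-05). Group means were 11.4 ± 4.4 CPM in E12.5 FL, 9.46 ± 2.8 in E16.5 FL, 13.3 ± 3.6 in perinatal BM, 17.7 ± 3.5 in 1w BM, 23.3 ± 0.22 in 3w BM (n = 2), 23.6 ± 1.7 in 4w BM, 26.6 ± 3.1 in 6w BM and 28.1 ± 3.2 in 8w BM (SD, n = 3 otherwise). All libraries from 3w BM on were above all earlier ones. Neither step within marrow passed the test at this region (log2 fold change 0.44, adjusted p = 0.61 for 1w BM against perinatal BM and 0.64, adjusted p = 0.16 for 8w BM against 1w BM). Its share of the gene's counts was 17.8% ± 2.8 in E12.5 FL, 23.1% ± 2.3 in 1w BM and 31.9% ± 2.6 in 8w BM (SD, n = 3 each). Over 14 alternatives for 8w BM against E12.5 FL its log2 fold change ran from 1.05 to 1.65, and all 14 passed the test.

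**Figure D4:**
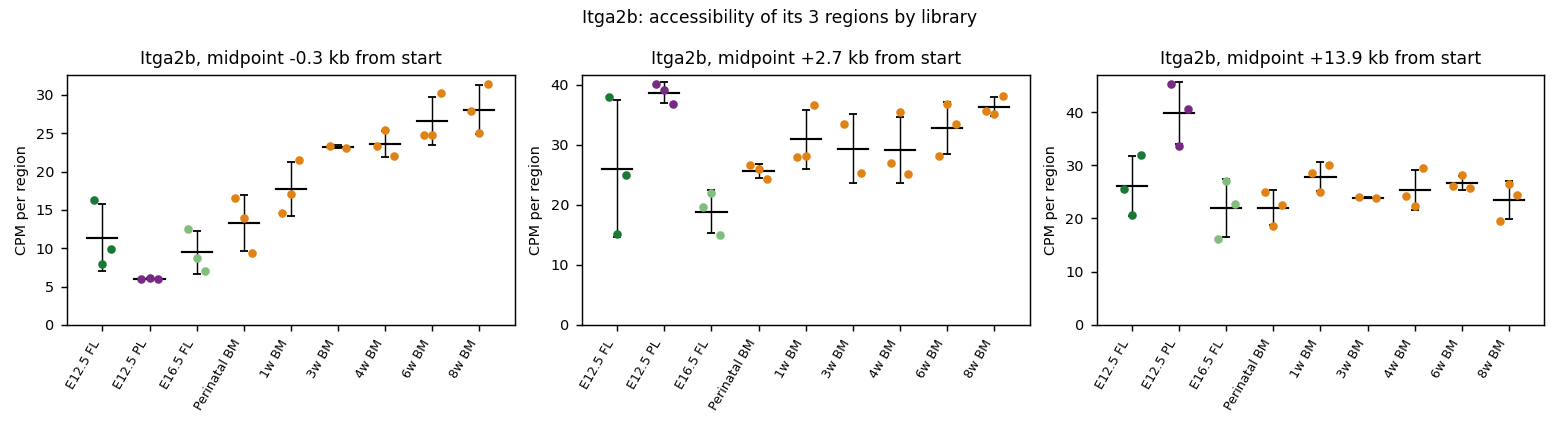
CPM (vertical axes, each from 0) of the 3 Itga2b regions in the 26 developmental libraries by group, with the midpoint of each region given as its distance from the RefSeq start. Points are libraries, lines means and bars SD, and the region upstream of the start (-0.3 kb) has group means of 28.1 CPM in 8w BM, against 9.46 CPM in E16.5 FL.

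Neither body region of Itga2b passed the test in this comparison. The nearer one, 2.70 kb downstream, held 35.7, 35.2 and 38.2 CPM in 8w BM, against 38.0, 15.2 and 24.9 CPM in E12.5 FL (log2 fold change 0.48, SE 0.21, adjusted p = 0.11). E12.5 FL 1 reaches the 8w BM libraries there, and without it the region was called (0.86). The region 13.9 kb downstream held 19.6, 26.4 and 24.5 CPM in 8w BM, against 25.6, 20.6 and 31.9 CPM in E12.5 FL, overlapping groups. Summed over the gene, Itga2b had 89.8, 90.0 and 103.5 CPM in 8w BM, against 94.4, 53.5 and 78.7 CPM in E12.5 FL (log2 fold change 0.32, SE 0.14, adjusted p = 0.081).

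In all, 6 of 50 regions differed between 8w BM and E12.5 FL, 5 higher and 1 lower, against 10.6% of all regions higher and 5.77% lower. Besides Itga2b, the Pf4 start-site region held 19.8, 25.0 and 21.6 CPM in 8w BM, against 6.79, 16.6 and 8.65 CPM in E12.5 FL (log2 fold change 1.05, SE 0.25, adjusted p = 0.0020). The highest E12.5 FL library lay below the lowest 8w BM library. The Gp9 region chr6:87775773-87776344 lies at the 5′ end of the gene's span, 2.01 kb upstream of the start used. It held 12.8, 9 and 9.72 CPM in 8w BM, against 5.44, 6.32 and 3.71 CPM in E12.5 FL (log2 fold change 1.02, SE 0.31, edgeR adjusted p = 0.015). Higher too were the Selp region chr1:164135263-164135859 (0.68, SE 0.19, adjusted p = 0.0074) and, chosen after its values were seen, the Vwf region chr6:125572244-125573071 (0.99, SE 0.27, adjusted p = 0.0073), while the 3′ region of Selp was lower (-1.11, SE 0.28, adjusted p = 0.0031).

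Several of these calls ended when 1 library was left out or a setting was changed, with the direction kept. Leaving out a library also lowers the power of the test. That of Gp9 ended without E12.5 FL 3 (0.83) or 8w BM 1 (0.85) and with total counts (0.83). The Selp gene-body call ended without E12.5 FL 1 (0.54) or 8w BM 2 (0.58), with total counts (0.48) and with loess offsets (0.17). The Selp 3′ call ended without E12.5 FL 2 (-0.81), and the Vwf call without E12.5 FL 3 (0.70) or 8w BM 2 (0.84) and with loess offsets (0.76).

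At the gene level the edgeR test called 0 of 7 members between 8w BM and E12.5 FL, as did DESeq2, against 15.4% of all genes called higher and 14.4% lower, with Pf4 and Itga2b at unadjusted p under 0.05. The count depended on the scaling and on the regions summed. With the factors of the region table it was 4 (Itga2b 0.47, Pf4 0.64, Gp9 0.50 and Vwf 0.31), while the median of all genes was 0.13 and 4499 genes were called higher and 1623 lower, against 2664 higher and 2507 lower with the gene table's factors. With gene-end regions only it was also 4, with Itga2b at 1.12, Pf4 at 0.85, Gp9 at 0.67 and Selp, whose 3′ region then weighs most, at -1.05. Without E12.5 FL 1 Itga2b was called (0.51), and without E12.5 FL 2 Pf4 (0.80) and Selp (0.44) were.

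Of the 73 further platelet genes 12 were higher in 8w BM than in E12.5 FL and 5 lower, against 15.4% of all genes higher and 14.4% lower, with a median log2 fold change of 0.02. The 17 calls were 11 without E12.5 FL 1 and 10 without 8w BM 2. Higher were Tgfb1 (0.71, SE 0.12), Srgn (0.59, SE 0.16), which encodes the proteoglycan core of granules, Myh9 (0.66, SE 0.11), the platelet non-muscle myosin, and the Ras-like gene Rap1b (0.45, SE 0.10). Among the lower were the coagulation factor gene F5 (-0.81, SE 0.21) and Sparc (-0.67, SE 0.18). Of the endothelial markers 0 were higher and 8 of 19 lower, with summed levels of 966 to 1034 CPM in 8w BM, against 1236 to 1251 CPM in E12.5 FL. Of 11 trophoblast markers 1 was higher and 5 lower, at 283.9 to 334.9 CPM in 8w BM, against 398.2 to 420.2 CPM in E12.5 FL. Higher and lower were 3 and 1 of 10 lymphoid, 3 and 2 of 9 hepatocyte and 2 and 2 of 12 macrophage markers. For mast cell, neutrophil and erythroid markers they were 1 and 1 of 9, 1 and 1 of 10 and 0 and 1 of 10. The part of these shifts in the values above was not tested.

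The members' order over the series was described by the correlation of their group means of log2 CPM over the 9 groups, which share libraries and the low values of E12.5 PL. Gp9 went with Selp (Pearson r = 0.928) and Pf4 (0.898), values that were 0.523 and 0.653 over the 8 groups without E12.5 PL. For Itga2b r with the other members ran from -0.172 (Itgb3) to 0.068 (Selp) over the 9 groups, and over the 8 groups without E12.5 PL it was 0.734 with Gp9 and 0.448 with Selp. Of all genes at or above the median level, those most like Itga2b were Smtnl2 (0.969), Marf1 (0.960) and Pxmp4 (0.957). Those most like Pf4 were Atp2a3 (0.981), Cdk18 (0.978) and Mbnl1 (0.975), and those most like Gp9 were Cdh15 (0.993), Ripor2 (0.992) and Fam163b (0.992). Ankrd44 (0.995), Parp8 (0.989) and Ifng (0.989) came closest to Selp, and Daglb (0.989) came closest to Itgb3. Over the 8 groups without E12.5 PL, r of these like genes was 0.961 to 0.978 for Itga2b and 0.928 to 0.939 for Pf4. It was 0.884 to 0.959 for Gp9, 0.947 to 0.978 for Selp and 0.966 for Itgb3.

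The authors' peak lists, called per library, gave a coarser picture. A called peak touched 40 of the 50 developmental regions in at least 1 of the 26 libraries. Only the Selp gene-body region chr1:164135263-164135859 lay under a peak in all 26. The Itga2b body regions did in 25 and 24 libraries and its upstream region in 15, the Pf4 start-site region in 20 and that of Gp9 in 16. The single Treml1 region lay under a peak in 2 libraries. Peak calls depend on depth, so these numbers were not compared between groups.

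After 2 h in culture, Itga2b was lower with hepatocyte-conditioned medium. It summed to 63.9, 72.7 and 77.2 CPM in co-SHI, against 85.7, 97.6 and 84.4 CPM in SHI, without overlap (log2 fold change -0.32, SE 0.08, edgeR adjusted p = 0.028). It was the 1 member called of 8, against 4.63% of 18298 genes called higher and 2.11% lower. The call ended without SHI 1 (log2 fold change -0.35), SHI 2 (-0.26), co-SHI 1 (-0.25) or co-SHI 2 (-0.34) and with gene-end regions only (-0.23). Its 2 body regions had log2 fold changes of -0.42 (SE 0.14, adjusted p = 0.17) and -0.35 (SE 0.12, adjusted p = 0.18), and neither passed.

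Pf4 had 28.3, 28.6 and 38.1 CPM in co-SHI, against 25.3, 25.3 and 25.0 CPM in SHI (log2 fold change 0.32, SE 0.12, adjusted p = 0.11), and Gp9 38.3, 35.6 and 35.2 CPM in co-SHI, against 30.6, 31.6 and 31.3 CPM in SHI (0.23, SE 0.09, adjusted p = 0.15). Both had an unadjusted p under 0.05 and did not pass. Gp6, the collagen receptor of platelets, had 2.84, 2.86 and 3.10 CPM in co-SHI, against 2.65, 2.51 and 2.83 CPM in SHI over 3 regions, none of them under a peak in any of the 6 libraries (log2 fold change 0.13, SE 0.28). Of the 70 regions 0 were called by edgeR and by DESeq2, with 9 at unadjusted p under 0.05, against 0.218% of all regions called higher and 0.33% lower. Of 75 further platelet genes 3 were higher in co-SHI and 3 lower, among them Tal1 (0.25, SE 0.06), a transcription factor of megakaryocyte and erythroid cells, and Myh9 (-0.21, SE 0.06). Of these 6 calls 0 were left without SHI 1, SHI 2, co-SHI 1 or co-SHI 2, and 10 genes were called without co-SHI 3.

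Some markers of other cells were called here as well, against 4.63% of all genes called higher in co-SHI and 2.11% lower. Of 12 erythroid markers 2 were higher in co-SHI and 0 lower, Hbb-bs (1.06, SE 0.29) and Alas2 (1.11, SE 0.31), and the list summed to 351.1 to 403.1 CPM in co-SHI, against 350.5 to 363.4 CPM in SHI. Higher and lower were 1 and 1 of 19 endothelial markers (Aplnr, 0.34, and Pecam1, -0.22), 1 and 1 of 11 lymphoid (Ikzf1, 0.22, and Dntt, -0.34) and 1 and 0 of 12 macrophage and monocyte markers (Adgre1, 0.38), and 0 of the mast cell, neutrophil, hepatocyte and trophoblast markers were called. The lymphoid sum was 898.6 to 907.2 CPM in co-SHI, against 819.7 to 875.5 CPM in SHI, and the endothelial sum 1226 to 1260 CPM in co-SHI, against 1266 to 1301 CPM in SHI. Ly6a, which encodes the sort marker Sca-1, was lower in co-SHI (-0.94, SE 0.16). The co-SHI libraries were deeper than the SHI libraries, and the part of depth or of these genes in the members' values was not tested.

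**Figure D5:**
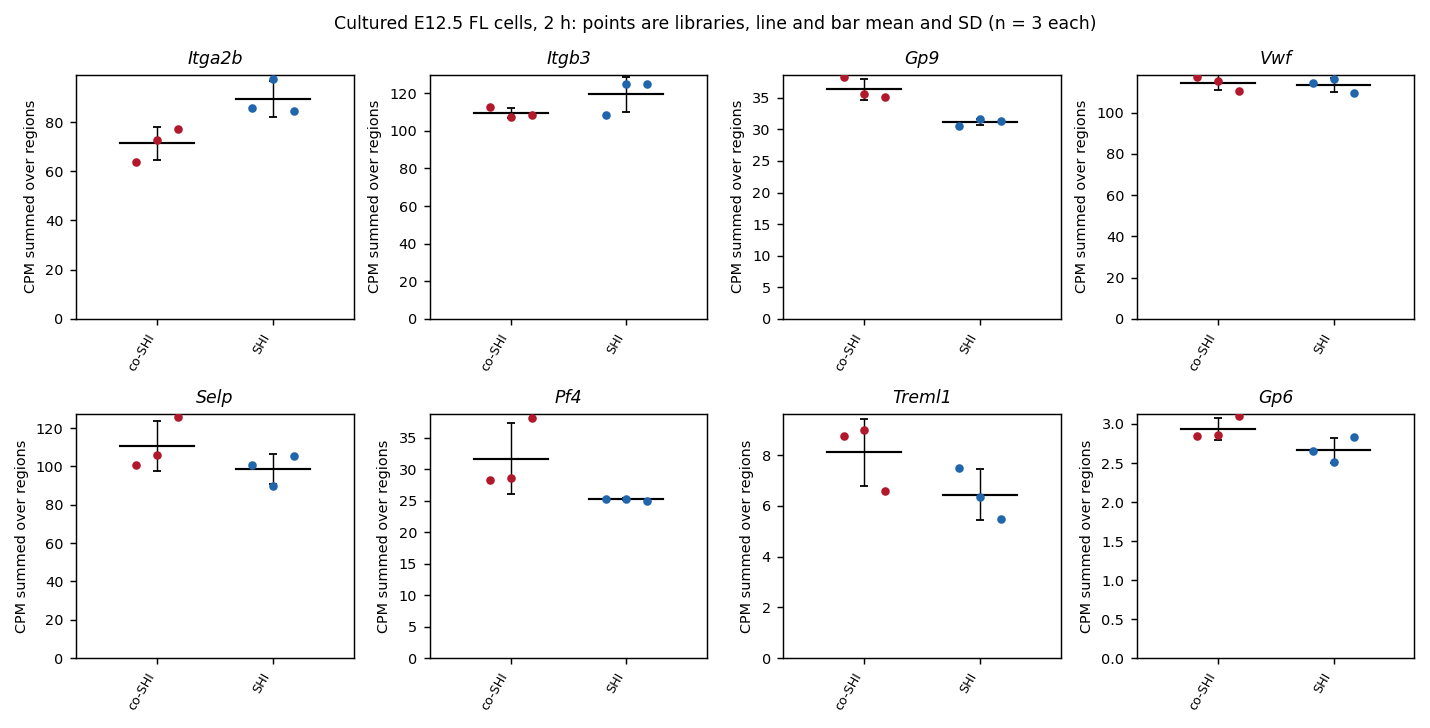
CPM summed over the regions of each gene (vertical axes, each from 0) in the 3 co-SHI and 3 SHI libraries. Points are libraries, lines means and bars SD, and the Itga2b libraries lie between 63.9 and 77.2 CPM in co-SHI and between 84.4 and 97.6 CPM in SHI.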

How the data were processed

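ATAC-seq was run on 32 libraries of LSK cells, 26 in the developmental table and 6 in the cultured table. The deposited values are counts of reads per region, made by the authors and not normalized, on mm10 per the submitters' processing notes, which list MACS2, HOMER, DiffBind, deepTools and Trim Galore. The aligner, the Tn5 shift and the treatment of duplicates are not given in the sources used here. The deposited peak lists hold 1 set of calls per library, with each peak's fold enrichment (a ratio), its -log10 p and q and a display score, which are the authors' values, and only peak positions and -log10 q were used here. E12.5 FL columns of the cultured table entered no comparison. By title they are the same 3 libraries, with totals of 16097639, 22061805 and 16198802, against 3968734, 3828485 and 3681041 in the developmental table. Itga2b had 1003, 1628 and 1127 counts there, against 353, 187 and 270 in the developmental table, so the libraries ranked differently. The E12.5 FL values and left-out libraries reported above rest on the developmental columns only.

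Regions were assigned to 21887 protein-coding RefSeq genes by midpoint, leaving 12.5% of developmental and 16.4% of cultured regions without a gene. Counts were summed per gene, and genes and regions were tested in R 4.3.3 with edgeR 4.0.16, by its quasi-likelihood test (filterByExpr with a minimum count of 10, TMM factors, all groups of a table in 1 fit, Benjamini-Hochberg adjusted p under 0.05 over all features of the table). Gene CPM are scaled to the total in gene-assigned regions and region CPM to the total of the region table, each after TMM, and log2 values used a prior count of 2. The TMM factors of the gene table were chosen for gene sums after the data had been seen, and those of the region table are reported as an alternative. The scripts were tested on simulated data. Alternatives were DESeq2 1.42.0 as tool and as size factors, total counts, cyclic loess offsets (limma 3.58.1, span 0.3, 3 iterations), no filter, a window of 10 kb, regions within 1 kb of a gene end, the compared groups alone, no E12.5 PL libraries, a replicate block and each library left out. Figures were drawn with matplotlib 3.10.9 in Python 3.11.15.

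The members, the gene lists and the tests were chosen with earlier results of these data known. All members were to be named where called, with at most 3 regions each, namely the 2 with the highest level and the 1 with the smallest p over the 9 groups, and at most 4 genes of each other list per comparison, by smallest p. Regions outside that rule are named as chosen after their values were seen. Replicate numbers were not used to pair the libraries. Deviations of same-numbered libraries from their group means had correlations of -0.033 to 0.146. With so few libraries per group these values cannot exclude a shared animal or day. Total counts ranged from 2845113 to 10167340 in the developmental libraries. A gene that the naming rule selects is not reported here.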

Additional observations from a re-analysis of the deposited data

Results flagged for a closer look

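Gp6 had 215 counts in all, in 3 regions, in the 3 E12.5 FL columns of the cultured table (52, 114 and 49 counts), which enter no comparison. In the developmental table no region was assigned to Gp6. These counts exceed the 3 counts that a listing at 0 would allow, and intervals on them would cover counting error only.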

How the results depend on the processing

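Counts of calls that moved by over 1.5 times were these, and the cause was not tested. With the region table's TMM factors, 2 members (1 as reported) and 22 further platelet genes (9 as reported) were called for perinatal BM against E16.5 FL, and 4 members (0 as reported) for 8w BM against E12.5 FL. With loess offsets, 13 of 50 regions (20 as reported) were called between E12.5 FL and E12.5 PL, 1 region (3) and 5 further genes (9) for perinatal BM against E16.5 FL, and 3 members (5) and 19 regions (30) over the 9 groups. With gene-end regions only, fewer counts enter each gene: 4 members (0) were called for 8w BM against E12.5 FL, 0 members (1) and 2 further genes (6) for co-SHI against SHI, and 0 further genes (1) for 1w BM against perinatal BM and for 8w BM against 1w BM. The last of these counts was 2 with the groups alone and without the E12.5 PL libraries. Called peaks covered the larger part of 26 regions and touched 40.

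Of 820 alternatives of member gene values, 51 had the other sign. In 3 of them the value was called in at least 1 of the 2 settings, all with gene-end regions only, between E12.5 FL and E12.5 PL at Itga2b (1.37) and Itgb3 (-0.26) and for 8w BM against E12.5 FL at Selp (-1.05).

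With each library left out in turn, called members numbered 3 to 5 between E12.5 FL and E12.5 PL, 0 to 1 for perinatal BM against E16.5 FL, 0 to 2 for 8w BM against E12.5 FL, 0 to 1 for co-SHI against SHI and 4 to 6 over the 9 groups. Called regions numbered 16 to 21, 1 to 3, 4 to 7, 0 and 28 to 32 in the same order, and 0 to 1 for 8w BM against 1w BM. Further platelet genes numbered 42 to 47, 3 to 10, 10 to 18, 0 to 10 and 53 to 58, and 0 to 1 for each step within marrow.

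The replicate number as a block gave 5 members and 21 regions between E12.5 FL and E12.5 PL, with Treml1 added (1.15), and 6 members over the 9 groups; it moved no count by over 1.5 times. Of 96 alternatives of called gene values, 83 kept direction and call, 12 lost the call and 1 reversed. Of 400 for called regions, 329 kept both and 71 lost the call. Of 2232 alternatives of all named regions 124 changed sign, none of a called value. Regions of a few CPM are limited by depth.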
